A study of Mus musculus with 8 samples.

Results

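Complex I (NADH:ubiquinone oxidoreductase) is the entry enzyme of the mitochondrial respiratory chain. It takes electrons from NADH through a flavin and a row of iron-sulfur clusters in its matrix arm, passes them to ubiquinone, and pumps protons through its membrane arm. The proton-pumping core is encoded by mitochondrial DNA, whereas the redox core and a large shell of accessory subunits are encoded in the nucleus and imported. Neurons depend heavily on this enzyme for ATP, and it is assembled stepwise from separate modules.

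The nuclear-encoded subunits described here were all protein-coding genes whose symbol is Ndufa, Ndufb, Ndufc, Ndufs or Ndufv followed only by a number. There were 36 such genes among the 54532 genes of the table for PTS + RS and RS, and the same 36 among the 28229 genes of the table for RGFP109 and vehicle. All 36 passed the filter on low counts in both tables. The symbol rule still takes in Ndufa4, which is now assigned to complex IV, and it leaves out the acyl carrier protein gene Ndufab1. By their place in the enzyme the members were divided into 7 core redox subunits, 9 other subunits of the matrix arm, 9 subunits of the proximal membrane arm, 10 subunits of the distal membrane arm, and Ndufa4.

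Bulk RNA-seq was performed on brain tissue of C57BL/6 mice, with 8 libraries in 4 groups of 2, each labelled day 21. The RS group received restraint stress without stroke. The PTS + RS group received a photothrombotic stroke, in which light on the skull closes cortical vessels after the dye Rose Bengal is given, together with restraint stress. Both groups were labelled cortex. In a second table every mouse carried PTS + RS, and the groups received RGFP109, a histone deacetylase inhibitor that the labels name as directed at HDAC3, given subcutaneously at 60 mg/kg daily, or vehicle, which the labels call NaCl. The sources differ on how long it was given. Replicate 1 of both groups was labelled cortex and replicate 2 amygdala, so replicate number and tissue cannot be told apart. Every mouse was restrained, and no sham or stroke-only library was used here. The sources do not state whether a library came from 1 mouse or from several, so that p-values measure the spread between these libraries only.

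Library totals ranged from 15902013 to 21712033 counts, and the members were well covered, with 187 counts for the lowest member in any library. Of the processed pseudogenes named after members, Ndufs6b reached at most 0.276 CPM and Ndufb4c at most 2.03 CPM in the first table, and reads shared with such copies could not be separated. Values are given as CPM, the count scaled to library size, after TMM scaling within each table, and a log2 fold change as the difference between groups with its standard error (SE). Because CPM is not divided by length, it serves to compare libraries and not genes. On the deposited FPKM scale, which is per length, Ndufa4 was the highest of the 36 genes in all 4 groups, with 86.0 ± 0.881 FPKM in RS and 77.1 ± 7.71 in PTS + RS (SD, n = 2).

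Marker genes of other cells moved with the groups of the first table. All 12 microglial markers were higher in PTS + RS, with summed levels of 1530 to 1800 CPM against 352 to 391 CPM in RS. Of 10 astrocyte markers 5 were higher. Of 12 neuronal markers 0 were called by edgeR or limma-voom, DESeq2 called 1 lower, the synaptic vesicle gene Syp, and 2 were lower at an unadjusted p of 0.05 in edgeR. Neuronal markers had summed levels of 7540 to 8190 CPM in PTS + RS against 8380 to 8710 CPM in RS. Summed choroid plexus markers stood at 51.1 CPM in PTS + RS replicate 2 and at 1640 to 3820 CPM in the other 3 libraries. No marker list was at 0 in any library, and the part of these markers in the results below was not tested. In bulk tissue, fewer cells of a type and less RNA per cell cannot be told apart.

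The first comparison addressed how stroke changes the cortex of restrained mice. Of the 36 members, 7 were lower in PTS + RS and 0 were higher at an adjusted p under 0.05 (edgeR quasi-likelihood test, adjusted over all 17581 genes tested). The lower members were Ndufa2, Ndufa12, Ndufb6, Ndufa1, Ndufs6, Ndufa3 and Ndufs3. They made up 19.4% of the members, beside 0.586% of all tested genes called lower and 2.96% called higher. The median log2 fold change was -0.32 over the members and 0 over all tested genes. At an unadjusted p under 0.05, 21 members (58.3%) were lower and 1 was higher, beside 7.55% and 10.3% of all genes. DESeq2 and limma-voom also called 0 members higher. In 25 members (69.4%) both PTS + RS libraries lay below both RS libraries, beside 24.5% of all genes.

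**Figure D1:**
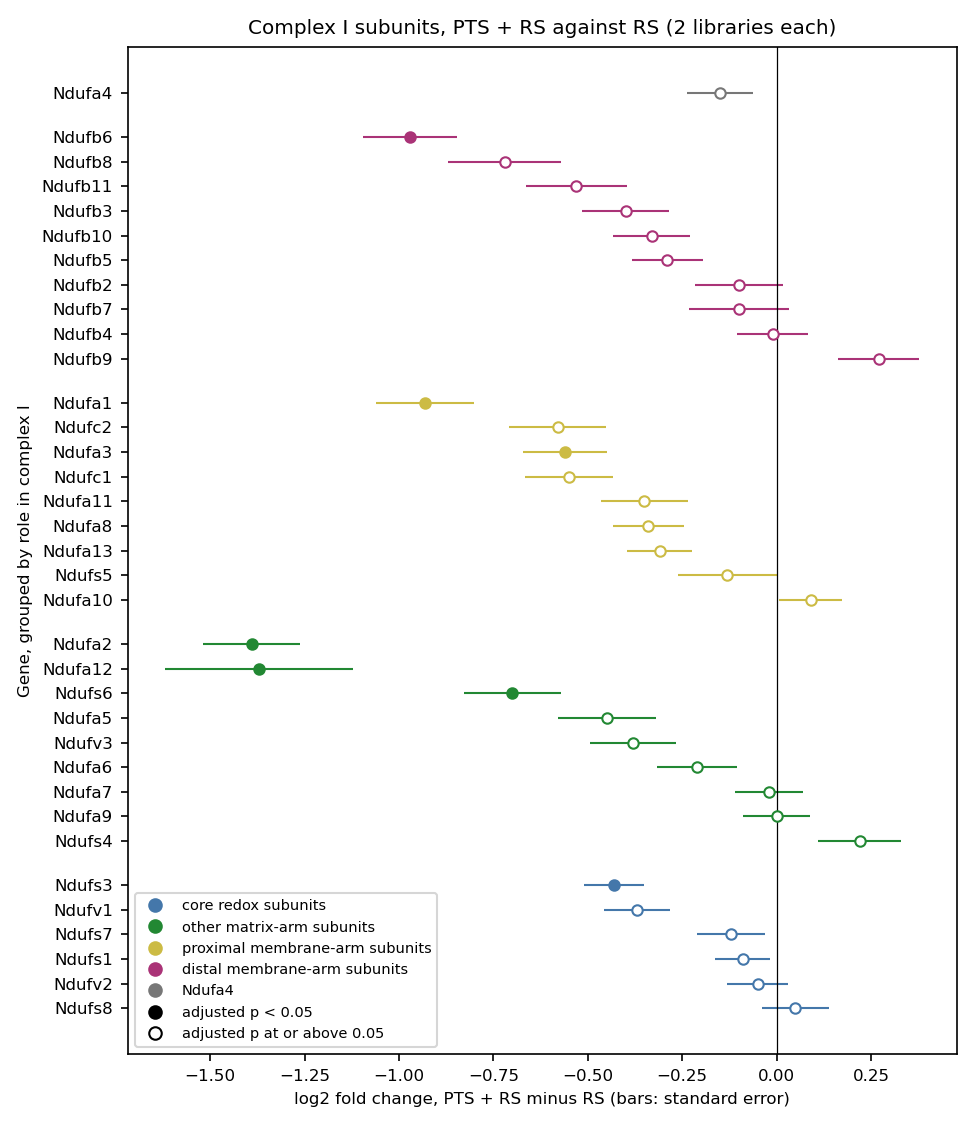
Log2 fold change of PTS + RS minus RS (x axis) for the members reported by name or by range (y axis), grouped by role. Points are fitted values and bars the SE from 2 libraries per group. The 7 filled points, with an adjusted p under 0.05, all lie left of 0, and the lowest are Ndufa2 at -1.39 and Ndufa12 at -1.37.

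By the coordinates of the file (GRCm38), the called genes other than Ndufa2, on chromosome 18, lay at chr10:94198720-94221443 (Ndufa12), chr4:40270591-40279421 (Ndufb6), chrX:37187588-37191163 (Ndufa1), chr13:73319838-73328542 (Ndufs6), chr7:3617373-3620327 (Ndufa3) and chr2:90894634-90904827 (Ndufs3). Each value is a count over the whole annotated gene.

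The matrix-arm accessory subunits held the members with the lowest fold changes. Ndufa2, a subunit with a thioredoxin-like fold in the NADH-oxidising module, stood at 14.4 and 15.7 CPM in PTS + RS and at 36.3 and 42.8 CPM in RS. The groups did not overlap, and the stroke libraries held 38.1% of the RS level (log2 fold change -1.39, SE 0.128, edgeR adjusted p = 0.0025). The 95% confidence interval of the log2 fold change ran from -1.69 to -1.09.

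Ndufa12, a small subunit that takes the place of a related assembly factor late in assembly, stood at 10.9 and 14.2 CPM in PTS + RS and at 24.6 and 40.4 CPM in RS. Both RS libraries were higher than both PTS + RS libraries, but they lay far from each other. The log2 fold change was -1.37 (SE 0.249, edgeR adjusted p = 0.033), and the call was lost with limma-voom (adjusted p = 0.057). Ndufa2 and Ndufa12 were the only 2 members both called and lower by at least 1 on the log2 scale.

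Ndufs6, a zinc-binding subunit, stood at 13.1 and 14.2 CPM in PTS + RS and at 22.9 and 21.5 CPM in RS, a log2 fold change of -0.70 (SE 0.129, edgeR adjusted p = 0.035). Its replicates lay close together in both groups. Ndufs4, an accessory subunit known for the encephalopathy that follows its loss, did not share this direction, with 40.0 and 38.5 CPM in PTS + RS and 36.1 and 31.1 CPM in RS (log2 fold change 0.22, SE 0.109, edgeR adjusted p = 0.34). The other 5 genes of this group did not pass the test, and in all, 3 of these 9 subunits were called lower and 0 higher, with a median of -0.38.

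Among the 9 proximal membrane-arm subunits 2 were called lower and 0 higher, with a median of -0.35. Ndufa1, a small X-linked subunit needed for assembly, stood at 13.2 and 14.8 CPM in PTS + RS and at 27.9 and 25.4 CPM in RS. Its level was 52.5% of that in RS (log2 fold change -0.93, SE 0.130, edgeR adjusted p = 0.012), and the groups lay well apart. Ndufa3, another small membrane subunit, stood at 25.7 and 30.2 CPM against 40.7 and 41.9 CPM (log2 fold change -0.56, SE 0.112, edgeR adjusted p = 0.046). Ndufc1 lay just past the threshold, with an adjusted p of 0.056.

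Among the 10 distal membrane-arm subunits 1 was called lower and 0 higher, with a median of -0.31. Ndufb6 stood at 13.7 and 15.7 CPM in PTS + RS and at 28.6 and 28.9 CPM in RS, 51.1% of the RS level (log2 fold change -0.97, SE 0.124, edgeR adjusted p = 0.0084). The RS libraries were almost equal, and the stroke libraries lay far below them. Ndufb8 missed the threshold (log2 fold change -0.72, adjusted p = 0.052). Ndufb9 had the highest fold change of all members, with 38.7 and 44.8 CPM in PTS + RS and 35.4 and 34.0 CPM in RS (log2 fold change 0.27, SE 0.108, edgeR adjusted p = 0.26).

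The core redox subunits, which carry the flavin, the iron-sulfur clusters and the ubiquinone site, had a median of -0.12, and 1 of the 7 was called lower. Ndufs3, a core subunit of the ubiquinone-binding module, stood at 51.8 and 50.5 CPM in PTS + RS and at 70.1 and 67.5 CPM in RS (log2 fold change -0.43, SE 0.0801, edgeR adjusted p = 0.038). The change was small, and so was the spread within each group. Ndufv1, which binds NADH and the flavin, stood at 88.4 and 101 CPM against 122 and 122 CPM without passing the test (log2 fold change -0.37, adjusted p = 0.072).

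Ndufs7, Ndufs1, Ndufv2 and Ndufs8 had log2 fold changes between -0.12 and 0.05, and none of them passed the test. Ndufs7, which holds the last cluster before ubiquinone, stood at 70.9 and 62.5 CPM in PTS + RS and at 73.2 and 71.7 CPM in RS. Ndufs1, the large iron-sulfur subunit, stood at 112 and 114 CPM against 123 and 117 CPM. In both genes the PTS + RS libraries lay below the RS libraries by margins that did not pass the test. Ndufv2, an iron-sulfur subunit of the NADH-oxidising module, overlapped between groups, with 82.1 and 89.0 CPM against 90.3 and 86.4 CPM. Ndufs8, another cluster-bearing subunit, overlapped too, with 51.9 and 48.7 CPM against 47.4 and 49.8 CPM. Over the 36 genes the fitted log2 fold changes ranged from -1.39 to 0.27. Ndufa4 stood at 99.9 and 115 CPM in PTS + RS and at 120 and 118 CPM in RS (log2 fold change -0.15, adjusted p = 0.41).

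Single libraries decided some of these calls. Ndufa2 and Ndufb6 were called lower under all 11 alternative settings. Ndufs6, Ndufa3 and Ndufs3 lost the call when either RS library was left out (adjusted p from 0.12 to 0.28), and Ndufa1 lost it without RS replicate 1 (adjusted p = 0.055). With 1 library left out, its group keeps a single library, and the number of calls moved over all tested genes too. Counts of called members from these 4 fits are therefore given only as a range among the processing settings below, and are not interpreted. The median over members stayed between -0.37 and -0.25 across them.

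**Figure D2:**
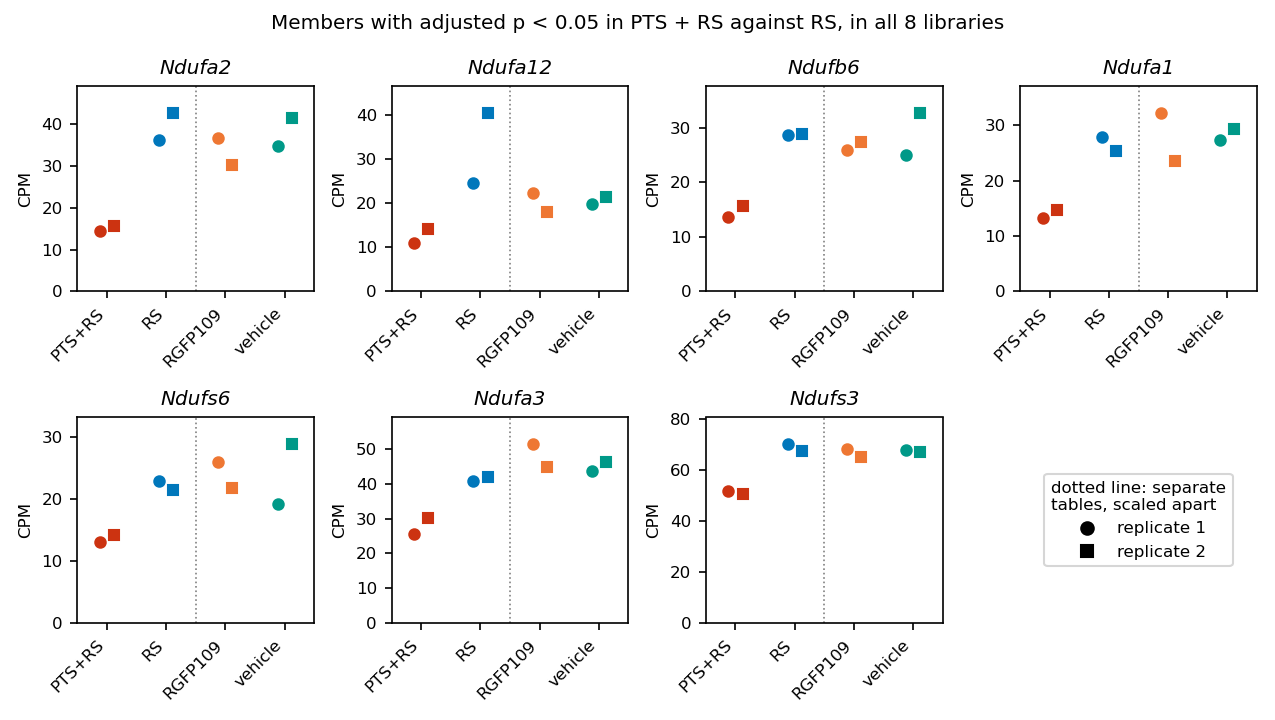
CPM (y axis, from 0) of the 7 members called lower in PTS + RS against RS, in each of the 8 libraries by group (x axis). Circles are replicate 1 and squares replicate 2, and the dotted line divides tables that were scaled separately. For Ndufa2 the PTS + RS libraries lie at 14.4 and 15.7 CPM, below all 6 other libraries.

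Transcript length moved with the fold change in this comparison, among the members and among all protein-coding genes, and GC content did among all protein-coding genes. Most members have short transcripts, with a median of 868 bases against 3036 bases for tested protein-coding genes. Among protein-coding genes with a main transcript of up to 600 bases the median log2 fold change was -0.10 and 6.41% were called lower. Above 4000 bases the median was 0.01 and 0.314% were called lower. By GC content, the median over protein-coding genes went from 0.05 up to 45% GC to -0.16 above 60% GC. Of the 7 members of up to 600 bases 4 were called lower, and their median was -0.56. Across the 36 genes, which share the same libraries, the log2 fold change followed log2 length with Pearson's r = 0.36, whereas r with GC content was 0. With the mean log2 CPM over both groups r was 0.57. That mean includes the PTS + RS libraries and is not divided by length, so it is not independent of the fold change. With length and GC content fitted as an offset, 9 members were called lower and 0 higher, and the median was -0.27 beside -0.04 for all genes. All 7 genes named above were among the 9, joined by Ndufb8 and Ndufc1.

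**Figure D3:**
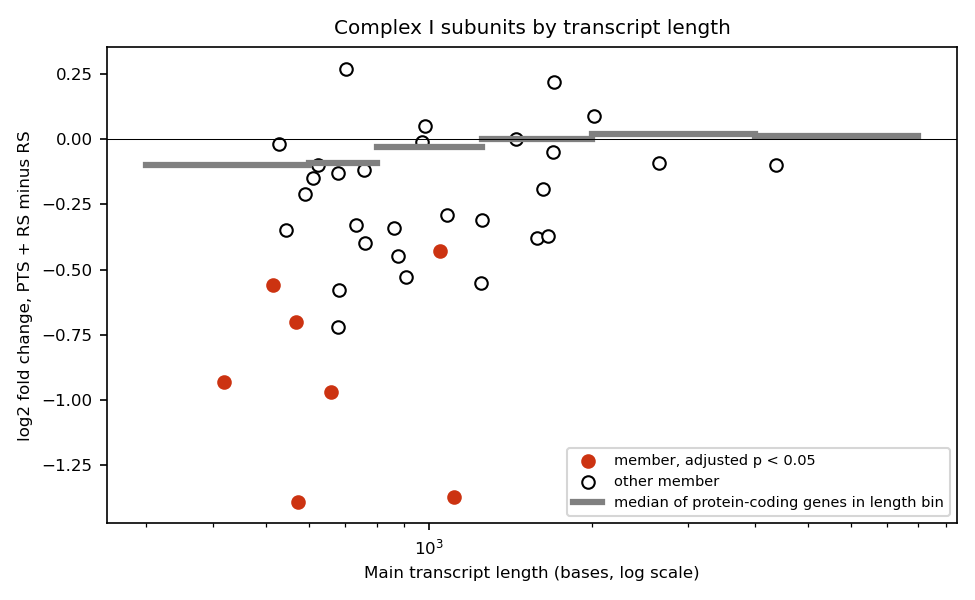
Log2 fold change of PTS + RS minus RS (y axis) against main transcript length in bases (x axis, log scale) for the 36 members. Red points are members with an adjusted p under 0.05, and grey bars give the median of protein-coding genes in each length bin, from -0.10 up to 600 bases to 0.01 above 4000 bases. The called members have lengths from 419 to 1110 bases.

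Promoter sequence from RefSeq on GRCm38.p6, running from 250 bases before to 50 after the start, was matched for 32 of the 36 members. Each motif was searched on both strands. The NRF1 motif GCGCATGC was present in 3 members (9.38%, beside 3.05% of all gene symbols), the ETS motif CCGGAAG in 4 (12.5%, beside 9.93%), the YY1 motif AAGATGGCG in 5 (15.6%, beside 1.64%) and the Sp1 motif GGGCGG in 14 (43.8%, beside 38.2%). Of the 6 called members with a promoter, 5 held the Sp1 motif, 2 the ETS motif, 1 the YY1 motif and 0 the NRF1 motif. These are descriptions of letters in a window and not of binding. The 100 bases before the start are shown for the 2 called members whose window met no annotated exon, with motif matches in capitals, to show the GC-rich, Sp1-bearing type of promoter. The windows lie at chr7:3617273-3617372 on the plus strand for Ndufa3 and at chr4:40279422-40279521 on the minus strand for Ndufb6.
Ndufa3: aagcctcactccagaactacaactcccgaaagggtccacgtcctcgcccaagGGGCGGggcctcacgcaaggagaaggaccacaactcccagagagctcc
Ndufb6: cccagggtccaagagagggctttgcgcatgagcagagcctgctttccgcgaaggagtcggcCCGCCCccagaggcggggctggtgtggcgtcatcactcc

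The remaining respiratory chain genes were read from the same fit. Of the 7 mitochondrially encoded complex I subunits, which form the membrane core, 0 were called by edgeR, DESeq2 or limma-voom, 2 were higher at an unadjusted p of 0.05, and the median log2 fold change was 0.07. Their summed level was 16600 and 17100 CPM in PTS + RS and 16200 and 14200 CPM in RS, while the summed level of the nuclear members was 1710 and 1860 CPM against 2110 and 2120 CPM. The groups overlapped in neither sum, and the sums lay in opposite directions, a difference that was not tested. Gene by gene, 4 of the 7 mitochondrially encoded subunits had a positive log2 fold change and 3 a negative one. In 3 of them both PTS + RS libraries lay above both RS libraries and in 1 below, beside 4515 and 4313 of all 17581 genes. Of the 17 assembly factors tested 0 were called by any of the 3 tools and 1 was lower at an unadjusted p of 0.05, with a median of -0.06. The log2 fold change was negative in 15 of the 17, beside 8845 of all 17581 genes. In 7 both PTS + RS libraries lay below both RS libraries and in 2 above, beside 4313 and 4515 of all genes.

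Among the 40 nuclear-encoded subunits of complexes II to V, 4 were called lower and 0 higher, with a median of -0.20. In complex III, Uqcr11 stood at 20.6 and 27.5 CPM in PTS + RS and at 43.5 and 49.5 CPM in RS (log2 fold change -0.95, edgeR adjusted p = 0.020), and Uqcrq was lower too (log2 fold change -0.53, edgeR adjusted p = 0.040). In the ATP synthase, Atp5e stood at 26.7 and 29.1 CPM against 53.5 and 53.4 CPM (log2 fold change -0.94, edgeR adjusted p = 0.0035), and the ring subunit gene Atp5g3 was lower as well (log2 fold change -0.75, edgeR adjusted p = 0.0030). Complexes II and IV held 0 called genes with edgeR and limma-voom, and DESeq2 called 2 in complex IV. At an unadjusted p of 0.05 in edgeR, 20 of the 40 genes were lower and 1 was higher, beside 7.55% and 10.3% of all genes. Those lower were 2 of 4 genes of complex II, 6 of 9 of complex III, 4 of 11 of complex IV and 8 of 16 of complex V. In 25 of the 40 genes both PTS + RS libraries lay below both RS libraries, beside 24.5% of all genes, and in 4 they lay above. Of 8 regulators of respiratory chain genes 1 was called, the nuclear receptor gene Esrra, at 33.0 and 36.1 CPM in PTS + RS and 54.5 and 56.9 CPM in RS (log2 fold change -0.69, edgeR adjusted p = 0.011). Lower levels were therefore also measured outside complex I, and no test compared the lists with each other.

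**Figure D4:**
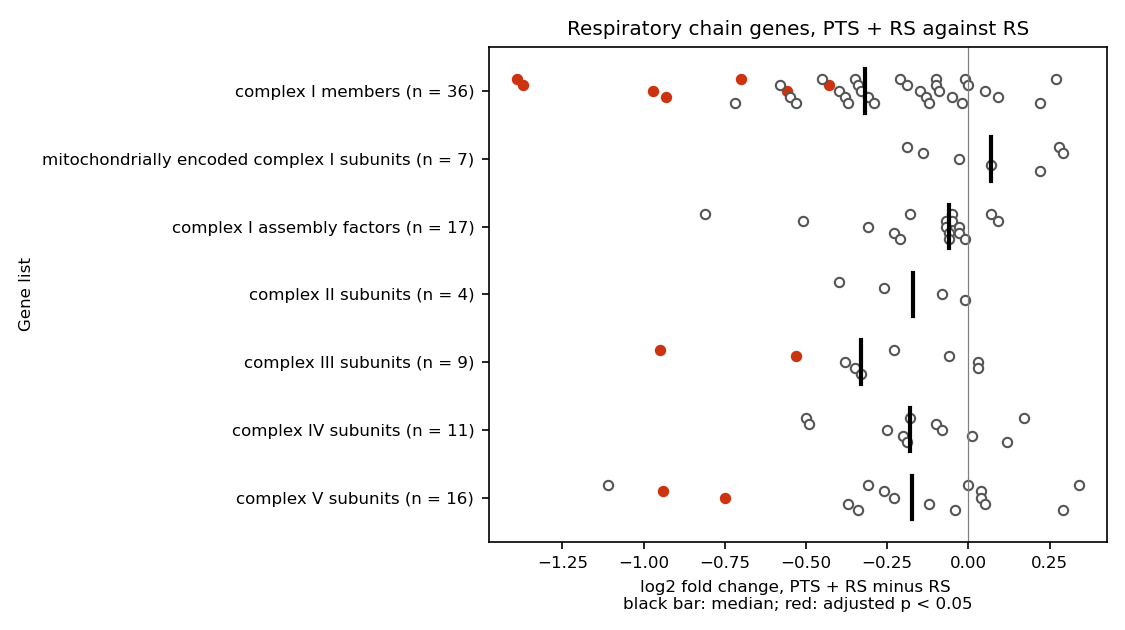
Log2 fold change of PTS + RS minus RS (x axis) for each gene of the complex I members and of 6 other respiratory chain lists (y axis). Red points have an adjusted p under 0.05 and black bars are medians. The median lies at -0.32 for the 36 members, at 0.07 for the 7 mitochondrially encoded subunits and at -0.06 for the 17 assembly factors.

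In the second table, libraries departed from their labels or from each other before any treatment effect was read. Summed olfactory bulb markers stood at 1200 CPM in vehicle replicate 1 and at 31.1 to 42.8 CPM in the other 3 libraries, and S100a5, an olfactory bulb marker, stood at 64.3 CPM there and at 0 in the others. Summed choroid plexus markers stood at 1520 CPM in RGFP109 replicate 1 and at 9.67 to 16.3 CPM elsewhere. Summed striatal markers stood at 1150 and 1270 CPM in the libraries labelled amygdala and at 194 and 128 CPM in those labelled cortex, whereas the amygdala list itself stood at 336 and 384 CPM against 435 and 242 CPM. The summed amygdala list thus did not separate the labels. Gene by gene, 7 of its 8 genes had a positive log2 fold change in amygdala-labelled against cortex-labelled libraries and 1 a negative one. Their median was 0.62, and 0 of them were called by edgeR. The cerebral cortex list had a median of 0.95 in the same fit, and the striatal list of 3.22. Summed microglial markers were 742 and 878 CPM in the amygdala-labelled libraries and 467 and 363 CPM in the cortex-labelled ones.

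The second comparison asked whether RGFP109 changes expression in PTS + RS mice. No member was called in either direction with edgeR, DESeq2 or limma-voom, and 0 passed an unadjusted p of 0.05. The background was the same, with 0% of the 17565 genes called lower and 0% called higher, and 0.672% lower and 0.501% higher at an unadjusted p of 0.05. The median log2 fold change was -0.09 over the members and -0.02 over all genes. In 11 of the 36 members (30.6%) both RGFP109 libraries lay below both vehicle libraries, and in 0 they lay above. Of all 17565 genes, 2423 were separated in this way below and 2255 above. The 95% confidence interval of the log2 fold change differed in width between members. It ran from -0.41 to 0.38 in Ndufs3 and from -0.50 to 0.29 in Ndufv2, and its lowest and highest bounds over all members were -1.16, in Ndufb2, and 0.69, in Ndufs6. Without vehicle replicate 1, which held the olfactory bulb markers, 0 members were called and the median was -0.14.

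The lowest fold changes belonged to Ndufb2, a distal membrane-arm subunit, and Ndufa11, a proximal one. Ndufb2 stood at 18.5 and 17.6 CPM with RGFP109 and at 29.8 and 18.6 CPM with vehicle (log2 fold change -0.42, SE 0.282). The difference came from vehicle replicate 1, since the other 3 libraries lay within 17.6 and 18.6 CPM. Ndufa11 stood at 40.5 and 38.0 CPM with RGFP109 and at 49.0 and 49.5 CPM with vehicle (log2 fold change -0.33, SE 0.161), and its groups did not overlap. The highest belonged to Ndufa3, with 51.4 and 44.8 CPM against 43.6 and 46.2 CPM (log2 fold change 0.10), and to Ndufb11, a distal membrane-arm subunit, with 62.7 and 51.2 CPM against 51.3 and 56.0 CPM (log2 fold change 0.09). Both of these overlapped between groups.

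The 7 genes called lower in PTS + RS against RS overlapped between RGFP109 and vehicle. Ndufa2 stood at 36.7 and 30.4 CPM with RGFP109 and at 34.8 and 41.5 CPM with vehicle. Ndufa12 stood at 22.2 and 18.0 CPM against 19.8 and 21.4 CPM, and Ndufb6 at 25.8 and 27.3 CPM against 24.9 and 32.7 CPM. Ndufa1 stood at 32.3 and 23.5 CPM against 27.4 and 29.3 CPM, Ndufs6 at 25.9 and 21.8 CPM against 19.2 and 28.8 CPM, and Ndufs3 at 68.2 and 65.2 CPM against 67.9 and 67.2 CPM. The log2 fold changes of Ndufa1, Ndufs6 and Ndufs3 lay between -0.02 and -0.01, and those of all 7 genes between -0.19, in Ndufa2, and 0.10, in Ndufa3. All mice of this table carried PTS + RS. The levels of all 7 genes in each of its 4 libraries lay above those of both PTS + RS libraries of the first table. The 7 genes were chosen as lower in those same PTS + RS libraries, so this position is not independent of the choice. Summed microglial markers stood at 363 to 878 CPM in this table. In the first they stood at 1530 to 1800 CPM in PTS + RS and 352 to 391 CPM in RS, and the part of this difference was not tested. The tables were scaled separately, so these levels stand side by side as a description without a test.

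The core redox subunits were close between RGFP109 and vehicle, with log2 fold changes from -0.25 to 0.02. Ndufs7 was the lowest of them, at 68.2 and 54.6 CPM with RGFP109 and at 71.4 and 74.9 CPM with vehicle. Ndufs8 stood at 52.5 and 41.7 CPM against 49.1 and 57.3 CPM. Ndufv2 stood at 87.9 and 85.8 CPM against 92.0 and 94.9 CPM, Ndufv1 at 133 and 125 CPM against 132 and 138 CPM, and Ndufs1 at 134 and 125 CPM against 136 and 120 CPM. The groups did not overlap in Ndufs7 and Ndufv2 and did in Ndufs8, Ndufv1 and Ndufs1. Ndufa4 stood at 136 and 125 CPM with RGFP109 and at 139 and 148 CPM with vehicle. None of these genes passed the test.

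Within each replicate number the members did not move alike. In replicate 1, labelled cortex, the median log2 ratio of RGFP109 to vehicle was 0.07, and 14 members were negative and 22 positive. In replicate 2, labelled amygdala, the median was -0.25, and 35 were negative and 1 positive, while 50.4% of all genes were negative there. Ndufs6 went furthest apart, with 0.43 in replicate 1 and -0.40 in replicate 2. Altogether 13 members were negative in both and 23 had opposite signs. Each ratio rests on 1 library a side, and vehicle replicate 1 is the one with the olfactory bulb markers.

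**Figure D5:**
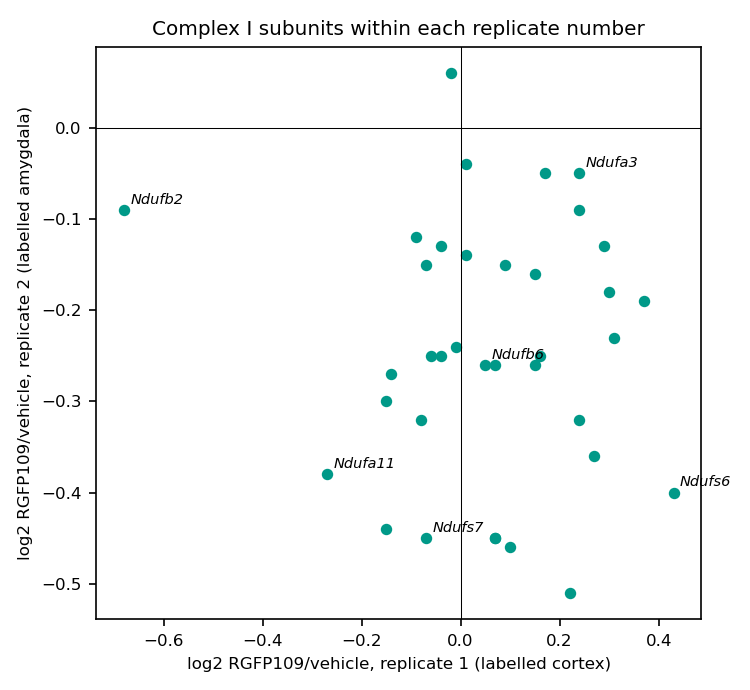
Log2 ratio of RGFP109 to vehicle (with a prior count of 2) in replicate 1, labelled cortex (x axis), and in replicate 2, labelled amygdala (y axis), for the 36 members. On the y axis 35 points lie below 0, whereas on the x axis 14 lie below 0, and Ndufb2 at -0.68 is the lowest.

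Between the amygdala-labelled and the cortex-labelled libraries, with treatment as a covariate, no member was called with edgeR, DESeq2 or limma-voom, and 0 passed an unadjusted p of 0.05. With edgeR, 0% of all genes were called lower and 0% higher. At an unadjusted p of 0.05 in edgeR, 3.06% were lower and 6.09% higher. DESeq2 called 53 of all 17565 genes lower and 154 higher, and limma-voom 0 in either direction. The median was -0.04 over the members and -0.01 over all genes. The lowest were Ndufb2 (log2 fold change -0.38, SE 0.251) and Ndufv3, an accessory subunit of the NADH-oxidising module, which stood at 36.0 and 39.4 CPM in the amygdala-labelled and at 44.6 and 46.0 CPM in the cortex-labelled libraries (log2 fold change -0.27, SE 0.188). The highest were Ndufb6 (log2 fold change 0.24) and Ndufs6 (log2 fold change 0.17). In Ndufv3 and Ndufb6 the 2 tissues did not overlap, and neither gene passed the test. Over all members, 5 were separated lower in the amygdala-labelled libraries and 2 higher, beside 3943 and 3793 of all 17565 genes. Over the members, the lowest bound of a 95% confidence interval was -1.04, in Ndufb2, and the highest 0.92, in Ndufs6.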

How the data were processed

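RNA was extracted with Trizol and sequenced as bulk libraries from the 8 samples. The labels name a directional NEBNext kit and the methods a Nugen kit, and the strand setting of the counting is not stated, so that reads of overlapping antisense genes may not be told apart. Per the labels and the submitters' processing notes, reads were aligned to GRCm38 (mm10) with STAR 2.4.0 and counted with HTSeq 0.6.1. The authors deposited raw counts per gene and FPKM values (fragments scaled to gene length and library size) in 2 tables. The deposited tables also hold the authors' fold changes and p-values, which were not used, and 8 further columns of per-sample values, which were not used either.

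Counts were tested with edgeR 4.0.16 (R 4.3.3) by the quasi-likelihood test with TMM factors and filterByExpr, over all genes of each table, with Benjamini-Hochberg adjustment and a threshold of 0.05. The SE was taken from the fold change and the test's F value. PTS + RS was compared with RS, RGFP109 with vehicle, and the amygdala label with the cortex label with treatment as a covariate. DESeq2 1.42.0, limma-voom (limma 3.58.1), RLE and upper-quartile factors, no filter on low counts, leaving out each library, and a replicate or treatment block were alternatives. An offset for transcript length and GC content (GENCODE M21 main transcripts, splines with 5 degrees of freedom) was added after seeing the data. The code was tested on simulated data. Values in every library are given for the core redox subunits, members with an adjusted p under 0.05, the 2 highest and 2 lowest members of each comparison, and Ndufa4, except for 1 gene that is not reported here. Other genes are named where a count or the threshold needed them. Those just past the threshold were named after their values were seen. Members, gene lists and tests were chosen with earlier results of these data known. The number of libraries limits the precision, and the part of counting error in the SE was not measured.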

Additional observations from a re-analysis of the deposited data

Results flagged for a closer look

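The median log2 ratio of RGFP109 to vehicle over the 36 members was 0.07 in the replicate 1 libraries, labelled cortex, and -0.25 in the replicate 2 libraries, labelled amygdala. It stands out because the ratio lay on opposite sides of 0 in the 2 tissues as labelled. With 1 library per treatment and tissue, the difference was not tested. Vehicle replicate 1, with 1200 CPM of summed olfactory bulb markers, enters the first of these values, and its part in the difference was not tested.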

How the results depend on the processing

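In PTS + RS against RS, 7 members were called lower, and this count moved to 17 with no filter on low counts, to 11 with DESeq2 and to 13 with the replicate block, and ranged from 4 to 21 when 1 library was left out. With the same omissions the count called higher ranged from 0 to 1, the 1 being Ndufb9 without PTS + RS replicate 1. The count called lower was 7, 8, 6 and 9 with RLE factors, upper-quartile factors, limma-voom and the length and GC offset. Over all tested genes the count called lower moved too, from 103 to 716 with no filter on low counts (30105 genes tested). It was 188 with DESeq2 and 228 with the replicate block. With RLE factors, upper-quartile factors, limma-voom and the length and GC offset it was 104, 133, 86 and 137. The member counts are therefore to be read beside these, and the cause of the moves was not tested. When 1 library was left out, the count called lower over all tested genes moved both up and down. The member range from those fits, with a single library in 1 group, is therefore not interpreted. Replicate numbers in this comparison did not pair (correlation of replicate deviations 0.04), so the block result is given for completeness. In RGFP109 against vehicle (correlation 0.30) the block gave 0 called members and a median of -0.09.

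Among genes near 0 the sign changed, never with an adjusted p under 0.05. With the offset, Ndufs7 moved to 0.05 in PTS + RS against RS, and without single libraries Ndufv2 ranged from -0.11 to 0.01. In RGFP109 against vehicle, Ndufs6 was 0 with limma-voom, 0.01 with the replicate block, 0.07 with the offset and 0.08 with both. With the offset, Ndufs3 was 0.05 and Ndufa12 0.02, and with block and offset 0.05 and 0.01. Without single libraries the ranges were -0.27 to 0.19 (Ndufa1), -0.19 to 0.11 (Ndufa12), 0 to 0.20 (Ndufa3), -0.06 to 0.23 (Ndufb11), -0.31 to 0.10 (Ndufb6), -0.12 to 0.24 (Ndufb9), -0.06 to 0.11 (Ndufs1), -0.05 to 0.02 (Ndufs3), -0.28 to 0.32 (Ndufs6) and -0.24 to 0.07 (Ndufv3). Between tissues as labelled, Ndufa2 was 0 with RLE factors and with DESeq2 and 0.01 with no treatment block, and Ndufv2 was -0.01 with upper-quartile factors and -0.12 with the offset. Fits between tissues without a library were not run, since no residual degrees of freedom remained. The median there was -0.17 within RGFP109 and 0.10 within vehicle, with no test.

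With 1 library left, its group is assumed to vary like the other. With 2 libraries per group, an uncalled member is not shown to be unchanged.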
